A study of Mus musculus with 18 samples.

Results

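The retinal pigment epithelium is the cell layer that lies against the photoreceptors, and 9 genes that serve it were followed through a study of steroid injection in the mouse eye. Rpe65, Lrat and Rdh5 encode enzymes of the visual cycle, and Rrh encodes an opsin-related protein of the same cells. Stra6, Ttr and Folr1 encode proteins that carry or take up retinol or folate, and Kcnj13 and Best1 encode ion channels. The members were chosen by gene symbol, with earlier results of these data known. Every probe set that the platform annotation assigns to a single one of these symbols was used, which gave 13 probe sets for 9 genes out of 18193 genes measured. Ttr had 4 probe sets, Lrat had 2 and the other 7 genes had 1 each. A further probe set, annotated to both Rdh5 and Bloc1s1, was not used.

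The study injected the eyes of 2-month-old male C57BL6/J mice once, into the vitreous, and removed the retina at day 30 or day 7. The groups were dexamethasone (DEX), triamcinolone (TAA in the labels) and BSS, the control solution, at each of the 2 days, with 3 biological replicates in each of the 6 groups and 1 Affymetrix array for each replicate. Both drugs are synthetic glucocorticoids. All 6 groups, the controls included, had the injection, and no uninjected eye was analysed here. The labels name the dissected tissue as retina, give no drug dose, and do not say whether a replicate pools eyes or animals, so p-values measure the spread between these samples. The values are relative log2 values, centred on 0 at the median of the 18 arrays for every probe set. They give differences between arrays but no expression level and no signal over background. Whether the markers that define retina or pigment epithelium were detected therefore could not be read from them, and the levels of different genes could not be compared.

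In the visual cycle, retinal that has been changed by light in the photoreceptors returns as retinol to the pigment epithelium. LRAT there joins it to a fatty acid, RPE65 converts this ester into the cis form of retinol, and RDH5 oxidises that to the cis retinal which photoreceptors need to rebuild their pigment. TTR travels with retinol-binding protein in the blood and is also made by the pigment epithelium, and STRA6 is the receptor through which these cells take retinol from retinol-binding protein. The pigment epithelium is a layer apart from the neural retina, and dissection usually separates them.

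RefSeq promoter windows (build GRCm38.p6) were found for 7 of the 9 genes. Ttr and Folr1 had no entry. The 250 bases before the transcript start listed in the promoter table are shown for the 3 enzyme genes and Kcnj13, because the results below turn on their values. For Lrat and Kcnj13 the listed start is the start of the annotated gene. For Rpe65 it lies 106 bases inside the annotated gene, so the last 106 bases of its window are within the gene, and for Rdh5 it lies 740 bases inside, so the whole window is within the gene. They were searched on both strands for CACGTG and CATGTG, E-box words that the pigment cell factor MITF is known to bind, and for TAATCC, a word bound by OTX2 and related homeodomain factors. Capitals mark the matches.
Rpe65, chr3:159598931-159599180, plus strand: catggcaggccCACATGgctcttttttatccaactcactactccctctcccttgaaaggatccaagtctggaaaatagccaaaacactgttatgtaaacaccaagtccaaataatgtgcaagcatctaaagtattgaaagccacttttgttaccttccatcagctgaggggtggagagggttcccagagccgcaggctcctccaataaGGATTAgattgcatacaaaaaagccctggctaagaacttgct
Lrat, chr3:82903975-82904224, minus strand: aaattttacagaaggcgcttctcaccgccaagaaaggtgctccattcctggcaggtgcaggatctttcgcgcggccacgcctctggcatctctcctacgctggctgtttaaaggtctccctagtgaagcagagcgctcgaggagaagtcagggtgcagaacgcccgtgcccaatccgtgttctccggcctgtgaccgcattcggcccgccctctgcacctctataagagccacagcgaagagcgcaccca
Rdh5, chr10:128919298-128919547, minus strand: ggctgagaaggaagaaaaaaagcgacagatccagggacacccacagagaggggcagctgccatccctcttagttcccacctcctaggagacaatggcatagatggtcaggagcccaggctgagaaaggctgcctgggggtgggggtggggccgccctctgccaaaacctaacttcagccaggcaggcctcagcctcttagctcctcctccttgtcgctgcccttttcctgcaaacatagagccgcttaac
Kcnj13, chr1:87394730-87394979, minus strand: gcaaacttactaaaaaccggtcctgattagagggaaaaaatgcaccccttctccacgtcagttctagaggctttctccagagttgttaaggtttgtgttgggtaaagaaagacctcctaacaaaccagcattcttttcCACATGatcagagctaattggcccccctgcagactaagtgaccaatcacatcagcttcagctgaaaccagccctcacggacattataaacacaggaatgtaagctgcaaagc
The Rpe65 window held CACATG, the reverse complement of CATGTG, 239 bases before the listed start and GGATTA, the reverse complement of TAATCC, 42 bases before it. The Kcnj13 window held CACATG 112 bases before its listed start. The Lrat and Rdh5 windows held none of the 3 words. Among 32851 promoter windows of this length, CATGTG was found in 12.3%, TAATCC in 6.3% and CACGTG in 6.0%. These matches describe letters in a window and not binding.

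Rpe65, Lrat, Rdh5 and Ttr varied widely between the arrays of a single group, and no difference between groups in these 4 genes passed the test. Rpe65 encodes the isomerase of the cycle (chr3:159599075-159625307, RefSeq, GRCm38.p6, as for the other genes). Its relative log2 values at day 30 were 0.20, 0.029 and 0.20 in DEX retinas, -1.26, -1.14 and 0.49 in TAA retinas and 0.068, 0.26 and -0.47 in BSS retinas. At day 7 they were -1.02, -1.28 and -0.029 in DEX retinas, -0.37, 0.35 and -0.99 in TAA retinas and -1.29, 0.31 and 0.27 in BSS retinas. A value of -1 stands for 0.5 of the median array. Low arrays occurred in 4 of the 6 groups. In TAA retinas at day 30 replicates 1 and 2 were low and replicate 3 was the highest of all 18 arrays, and in BSS retinas at day 7 replicate 1 was the lowest of all. The 6 lowest arrays lay at or below -0.99 and the other 12 at or above -0.47. The 3 DEX retinas at day 30 lay close together (mean 0.14 ± 0.098, SD, n = 3), against -0.63 ± 0.98 in TAA retinas and -0.049 ± 0.38 in BSS retinas of that day. The day 7 means were -0.78 ± 0.66 in DEX retinas, -0.34 ± 0.67 in TAA retinas and -0.24 ± 0.91 in BSS retinas. The 6 group means ran from DEX at day 30 at the top to DEX at day 7 at the bottom. The arrays of these outer groups did not overlap, as for 24.9% of all probe sets. Their difference, given below, did not pass. In these bulk samples, fewer pigment epithelial cells and less RNA per cell cannot be told apart.

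Lrat, which makes the retinyl esters that RPE65 uses (chr3:82892582-82903974), had values of 0.19, 0.43 and 0.12 in DEX retinas, -1.04, -0.83 and 0.43 in TAA retinas and -0.28, 0.19 and -0.86 in BSS retinas at day 30. At day 7 its values were -1.10, -0.42 and 0.20 in DEX retinas, 0.0050, -0.0050 and -0.34 in TAA retinas and -0.62, 0.76 and 0.24 in BSS retinas. Again TAA replicates 1 and 2 at day 30 were low beside replicate 3, and the 6 groups overlapped widely. These are the values of the Lrat probe set with the wider interquartile range, and the other Lrat probe set correlated with it over the 18 arrays at r = 0.843. Rdh5, the dehydrogenase that completes the cis retinal (chr10:128913588-128920037), had a narrower range. Its values at day 30 were 0.011, -0.12 and 0.19 in DEX retinas, -0.011, -0.39 and 0.69 in TAA retinas and 0.26, 0.15 and -0.32 in BSS retinas. Its day 7 values were -0.51, -0.62 and 0.34 in DEX retinas, -0.098, 0.21 and -0.055 in TAA retinas and -0.24, 0.57 and 0.46 in BSS retinas. The highest Rdh5 array was TAA replicate 3 at day 30 and the lowest were DEX replicates 1 and 2 at day 7, which were also low for Rpe65.

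**Figure D1:**
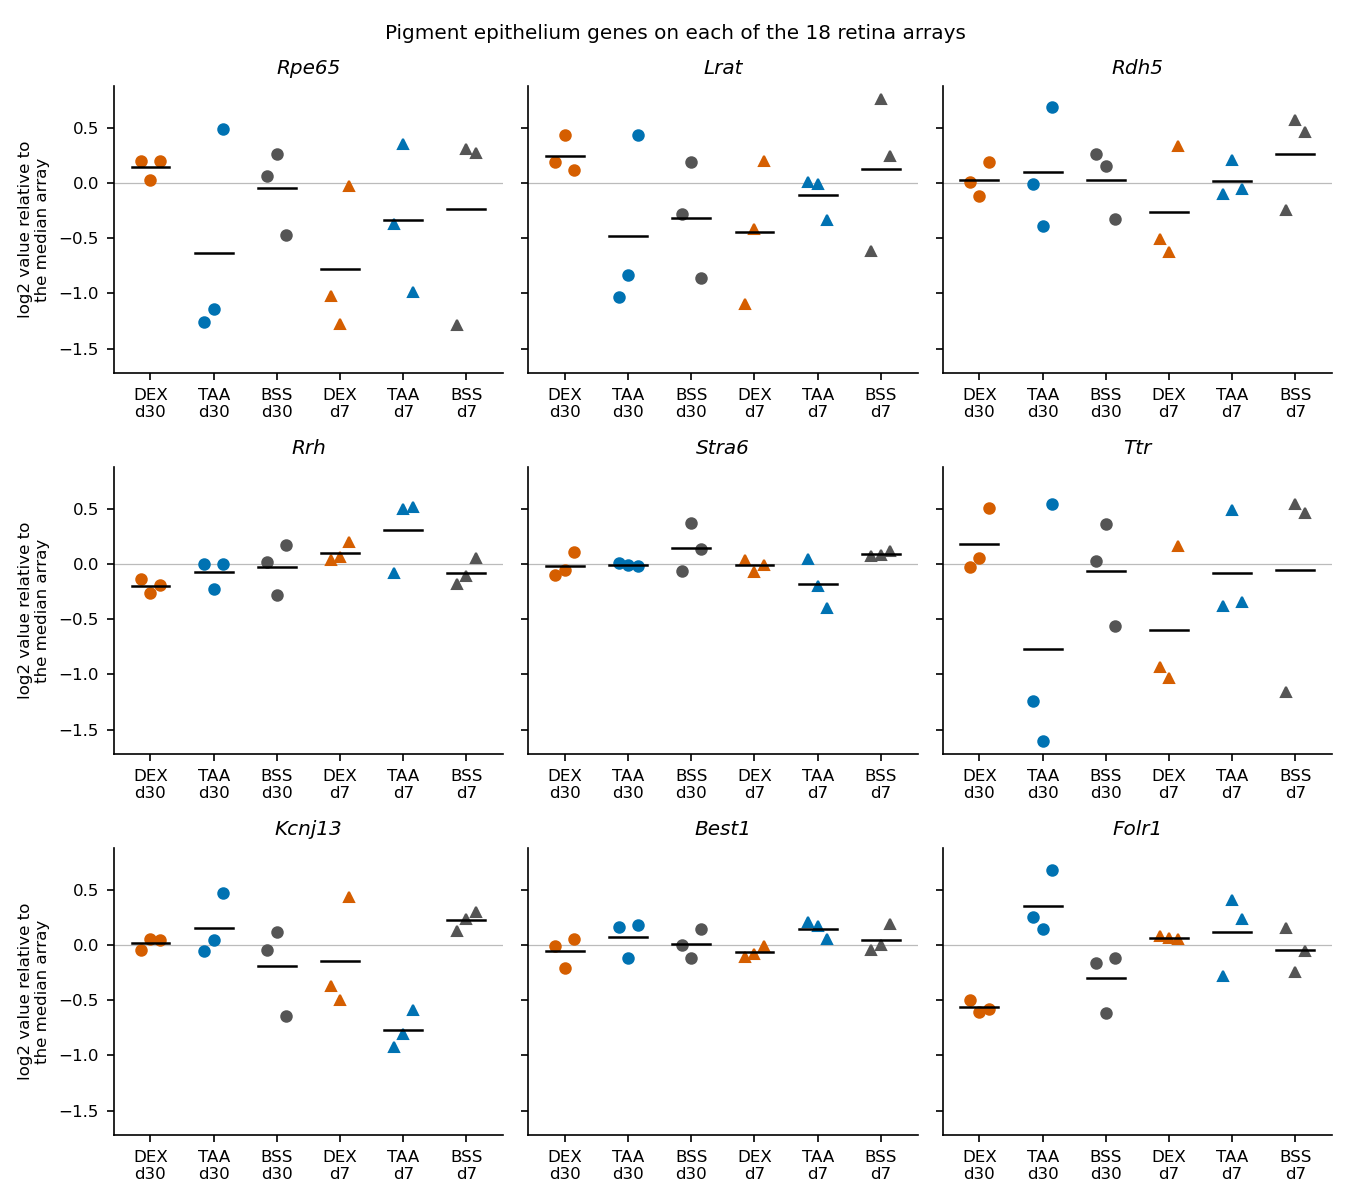
Relative log2 value (vertical axis) of each of the 9 genes on the 18 retina arrays, by group (horizontal axis), with circles for day 30, triangles for day 7 and a bar at each group mean. Rpe65, Lrat, Rdh5 and Ttr scatter within groups, while Kcnj13 lies lower in TAA retinas at day 7 than in the other day 7 groups and Folr1 lies at -0.61 to -0.50 in DEX retinas at day 30.

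Ttr, the thyroxine and retinol-binding protein carrier, is a gene of chromosome 18. Its values at day 30 were -0.024, 0.055 and 0.51 in DEX retinas, -1.24, -1.60 and 0.54 in TAA retinas and 0.024, 0.36 and -0.56 in BSS retinas. At day 7 they were -0.93, -1.03 and 0.16 in DEX retinas, -0.38, 0.49 and -0.34 in TAA retinas and -1.16, 0.55 and 0.47 in BSS retinas. The 5 lowest Ttr arrays were all among the 6 lowest Rpe65 arrays. The 4 Ttr probe sets moved together over the arrays, with pairwise r between 0.944 and 0.997. Within groups, the Rpe65 probe set had a residual SD of 0.687, above that of 99.7% of all probe sets, and the 4 Ttr probe sets had 0.665 to 0.733. The shares of variance that lay between groups were 24.1% for Rpe65, 26.7% for Lrat, 19.4% for Rdh5 and 24.0% for Ttr.

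Because these genes changed from array to array, their values were compared across the 18 arrays, in 36 pairs of the 9 genes with two-sided permutation tests of 100000 resamples, and the p-values carry a Benjamini-Hochberg adjustment over the 36 pairs. Rpe65 and Ttr had Pearson's r = 0.945 (permutation p = 1e-05, the smallest that 100000 resamples can give, adjusted p = 0.00024) and Spearman's rho = 0.934 (permutation p = 1e-05, adjusted p = 0.00036). Rpe65 and Lrat had r = 0.830 (permutation p = 0.0001, adjusted p = 0.00072) and rho = 0.770 (permutation p = 0.00033, adjusted p = 0.00238). Rpe65 and Rdh5 had r = 0.799 (permutation p = 5e-05, adjusted p = 0.00045) and rho = 0.825 (permutation p = 4e-05, adjusted p = 0.00045). Arrays low for Rpe65 were thus mostly also low for Ttr, Lrat and Rdh5. The other 3 pairs among these 4 genes had r between 0.739 and 0.857, and each passed with both coefficients. The 9 genes were chosen with earlier results of these data known, which the permutation p-values do not allow for.

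The relations were as close once the group means were taken out. On deviations from the group means, the r with Rpe65 was 0.954 for Ttr, 0.855 for Lrat and 0.898 for Rdh5. Without the 2 arrays farthest from the Rpe65 median it was 0.934 for Ttr, 0.858 for Lrat and 0.754 for Rdh5. Within the 12 arrays with Rpe65 above -0.5, r was 0.927 for Ttr, 0.677 for Lrat and 0.782 for Rdh5. Within the 6 low arrays it was 0.556 for Ttr, -0.038 for Lrat and 0.077 for Rdh5. Those 6 arrays were picked by Rpe65 itself and span only -1.29 to -0.99 in it, so little can be read from r among them. The labels give no scan date or batch, so no relation could be computed within batches.

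**Figure D2:**
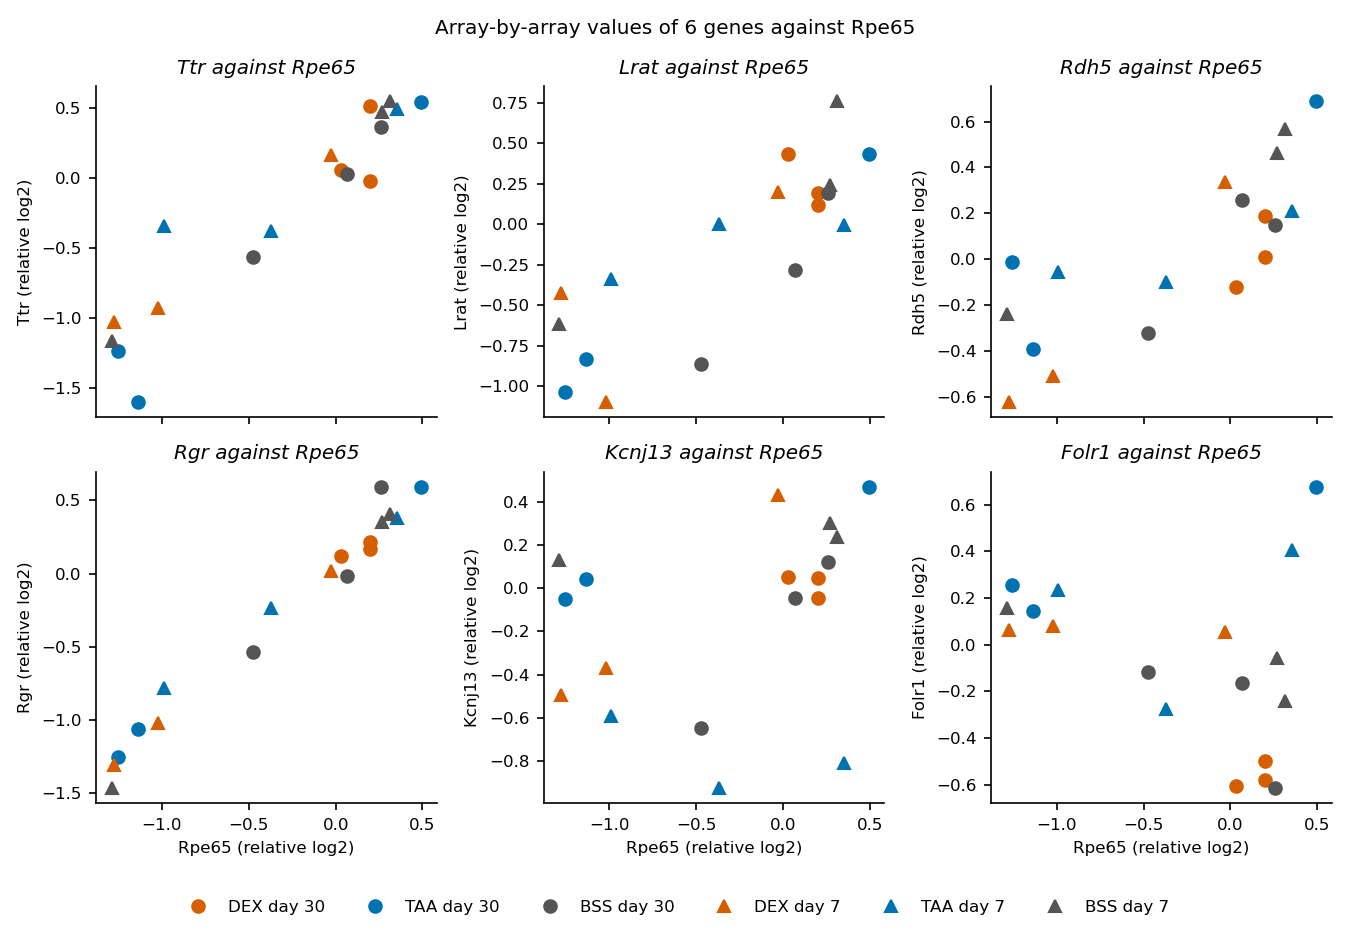
Relative log2 value of 6 genes (vertical axes) against that of Rpe65 (horizontal axis) on the 18 arrays, with colours for treatment, circles for day 30 and triangles for day 7. Ttr (r = 0.945) and Rgr (r = 0.988) lie near a line, and Lrat and Rdh5 scatter more about one. Kcnj13 (r = 0.324) and Folr1 (r = -0.312) have weaker relations to Rpe65, which did not pass.

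The other 5 genes had weaker relations to Rpe65. Their r with Rpe65 was 0.324 for Kcnj13, 0.223 for Best1, 0.204 for Stra6, -0.057 for Rrh and -0.312 for Folr1, and none of these passed, with adjusted permutation p between 0.376 and 0.846. On deviations from the group means Kcnj13 had r = 0.615 with Rpe65 and 0.779 with Rdh5, which are descriptions without a test. Lrat and Kcnj13 passed by rank (rho = 0.618, permutation p = 0.00777, adjusted p = 0.040) but not by Pearson's r (0.395, permutation p = 0.105, adjusted p = 0.251). Rrh and Stra6 ran in opposite directions (r = -0.658, permutation p = 0.0034, adjusted p = 0.0175). By rank they did not pass (rho = -0.354, permutation p = 0.151, adjusted p = 0.323). That relation rests on 2 arrays, since r was -0.231 without them.

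**Figure D3:**
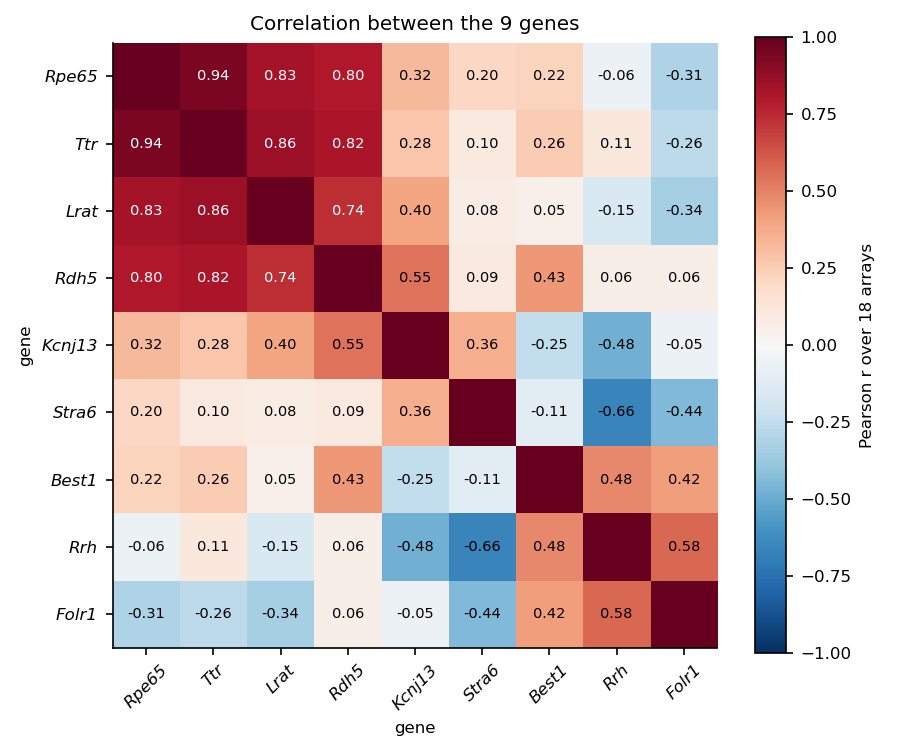
Pearson's r over the 18 arrays for each pair of the 9 genes, shown by colour from -1 to 1 with the value printed in each cell. Rpe65, Lrat, Rdh5 and Ttr form a block with r of 0.739 to 0.945, and the other genes have weaker relations to it.

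Among 16305 genes outside the set, the one most like the mean of the 9 was Rgr, with r = 0.909 over the 18 arrays. Rgr encodes an opsin-related retinal-binding receptor of the pigment epithelium and Müller glia. Its relative log2 values at day 30 were 0.21, 0.12 and 0.17 in DEX retinas, -1.26, -1.07 and 0.59 in TAA retinas and -0.017, 0.59 and -0.54 in BSS retinas. At day 7 they were -1.02, -1.31 and 0.017 in DEX retinas, -0.23, 0.38 and -0.79 in TAA retinas and -1.47, 0.41 and 0.35 in BSS retinas. These are nearly the Rpe65 values array by array, with r = 0.988 between Rgr and Rpe65, 0.943 between Rgr and Ttr and 0.846 between Rgr and Lrat. The next in likeness to the mean were Ccdc171 (r = 0.801), Nagk (0.794), Pramel34 (0.787), Fbln2 (0.785) and Slc6a20a (0.780). They were picked from these 16305 genes for their likeness and carry no test. Predicted, RIKEN and clone symbols were left out of this and the later likeness rankings.

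Rgr was the exception among the other genes of retinoid handling. A list of 13 such genes had 11 measured, and the other 10 had r with Rpe65 between -0.456 for Dhrs3, a retinal reductase, and 0.271 for Rdh11, a retinol dehydrogenase. Rlbp1, which encodes the retinal-binding protein of pigment epithelium and Müller glia, had r = 0.179, and Abca4, the photoreceptor retinoid transporter, had r = 0.070. A list of 18 other pigment epithelium genes, all measured, had r between -0.408 for Mfge8, a ligand for the engulfment of photoreceptor tips, and 0.439 for Slc16a8, a lactate transporter. These correlations are over the same 18 arrays and are given as a description.

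Genes of the melanosome, the pigment granule that the pigment epithelium shares with melanocytes of the choroid, mostly had low r with Rpe65. Of 10 listed, 9 were measured. Oca2, a melanosome membrane protein, had r = 0.658 with Rpe65, while the pigment enzymes Dct and Tyrp1 had 0.035 and -0.098 and the melanosome proteins Pmel and Mlana had -0.298 and -0.344. The list averaged 1.01 on BSS replicate 1 at day 7 and -0.37 to 0.37 on the other 17 arrays. On that array Tyrp1 was at 2.39, Dct at 2.37, Mlana at 2.11 and Pmel at 1.72. The rest of the list was not raised as far there, with Tyr at 0.033, Slc45a2 at -0.038, Oca2 at 0.027, Gpr143 at 0.10 and Rab38 at 0.35. Rpe65 was at -1.29 and Rgr at -1.47 on the same array, the lowest of the series for both. The r values of the melanosome genes include this array, and r without it was not computed. A second array stood apart by its lens genes. The 7 lens genes averaged 4.0 on TAA replicate 3 at day 30, against 1.99 on the next array, and that array was also the highest for Rpe65 and Rdh5. The part of either tissue in the values of the 9 genes was not tested.

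**Figure D4:**
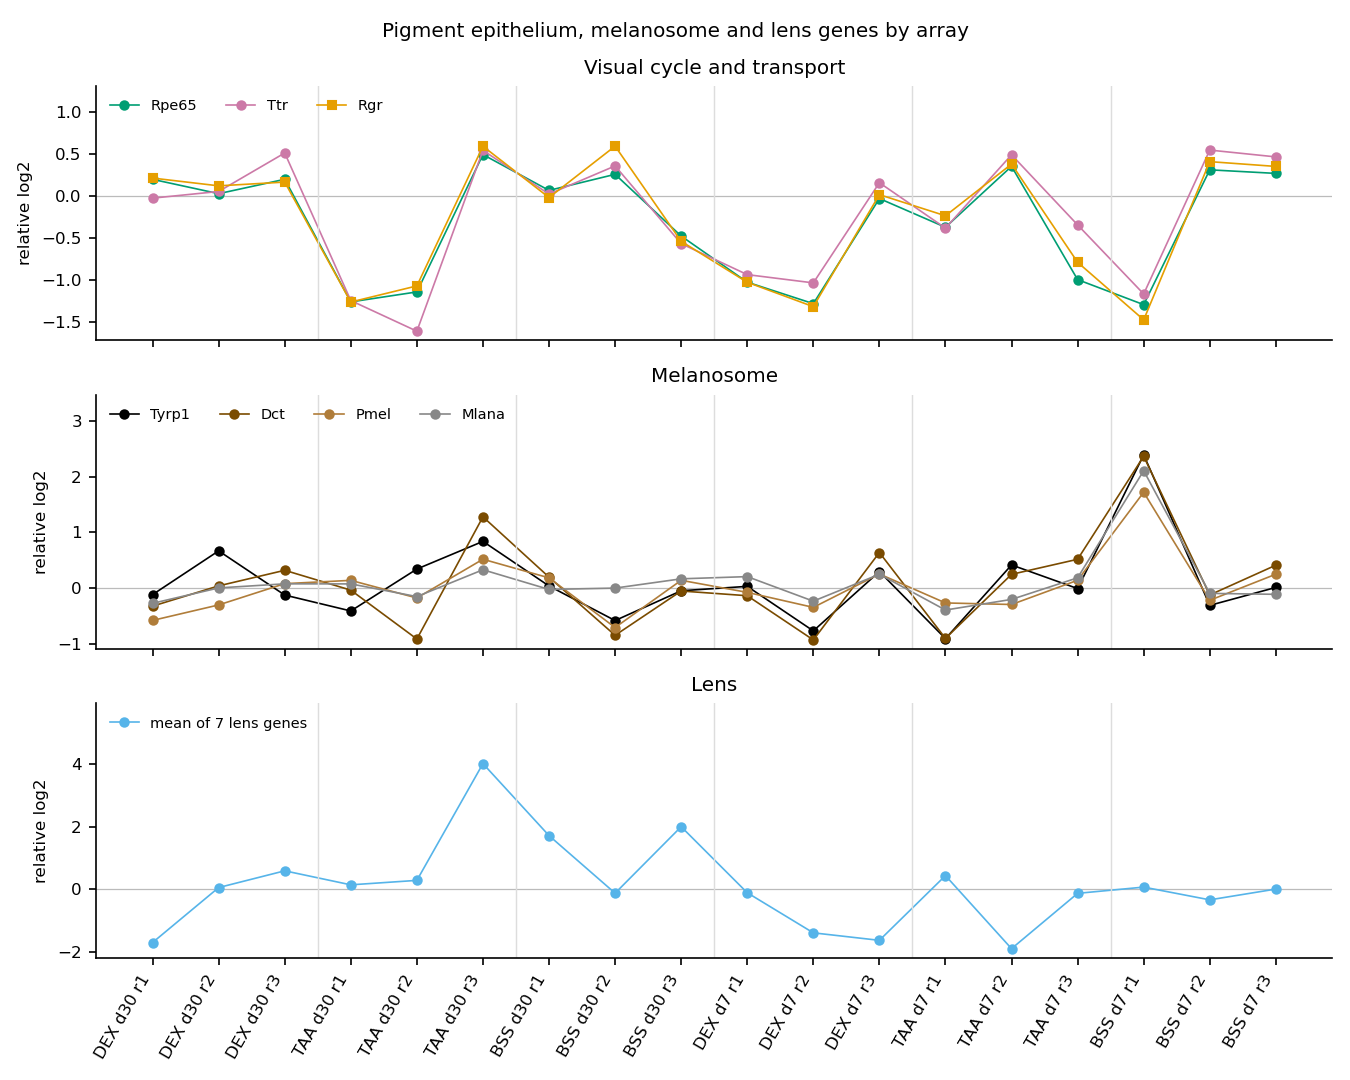
Relative log2 values on each of the 18 arrays (horizontal axis) of Rpe65, Ttr and Rgr (top), of Tyrp1, Dct, Pmel and Mlana (middle) and of the mean of 7 lens genes (bottom), with lines joining points only to guide the eye. Rpe65 and Rgr dip furthest together in 4 groups, joined by Ttr except in TAA retinas at day 7. Tyrp1, Dct, Pmel and Mlana stand at 1.72 to 2.39 on BSS replicate 1 at day 7, and the lens mean is 4.0 on TAA replicate 3 at day 30.

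Differences between groups were fitted with limma on all 34945 probe sets of a single gene, with all 18 arrays in 1 model and a Benjamini-Hochberg adjustment over every probe set tested. A probe set was called at an adjusted p under 0.05. None of the 13 member probe sets was called in any of 11 comparisons of drug or day by limma. DEX against BSS at day 30 called 0% of all probe sets, and 0 of the 13 had an unadjusted p under 0.05 against 11.8% of all. TAA against BSS at day 30 called 0% of all, and 1 of the 13 had an unadjusted p under 0.05 against 7.03% of all. DEX against BSS at day 7 called 0% of all, and 0 of the 13 had an unadjusted p under 0.05 against 3.41% of all. TAA against BSS at day 7 called 0.00286% of all, and 3 of the 13, Kcnj13, Rrh and Stra6, had an unadjusted p under 0.05 against 3.83% of all. Both drugs were compared with the same BSS arrays.

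Set against each other, DEX and TAA retinas gave 0% of all probe sets called at either day. At an unadjusted p under 0.05 there was 1 of 13 members at day 30, Folr1, beside 16.9% of all, and 1 at day 7, Kcnj13, beside 6.28% of all. For day 30 against day 7, DEX retinas had 2% of all called and 1 of 13 members at an unadjusted p under 0.05, beside 18.7% of all. TAA retinas had 0% called and 2 of 13 members, beside 12.4%. BSS retinas had 0.0143% called and 0 of 13 members, beside 7.1%. The drug effect at day 30 minus that at day 7 called 0% of all for either drug, with 0 of 13 members at an unadjusted p under 0.05 for DEX, beside 8.45%, and 1 for TAA, beside 5.83%.

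The enzyme genes and Ttr gave wide intervals in every comparison. At day 30 Rpe65 averaged 0.14 ± 0.098 in DEX retinas and -0.63 ± 0.98 in TAA retinas (SD, n = 3 each), a difference of 0.78 ± 0.47 (SE, 95% interval -0.22 to 1.77, limma adjusted p = 0.429). Ttr differed by 0.95 ± 0.50 (SE, 95% interval -0.11 to 2.01, limma adjusted p = 0.355), and Lrat by 0.73 ± 0.39 (SE, 95% interval -0.091 to 1.54, limma adjusted p = 0.358). Rdh5 differed by -0.069 ± 0.28 (SE, 95% interval -0.65 to 0.51, limma adjusted p = 0.932). None of these passed. Leaving out TAA replicate 3 at day 30, the array of the high lens genes, raised these differences most. They were then 1.34 for Rpe65, 1.60 for Ttr, 1.18 for Lrat and 0.23 for Rdh5. Without TAA replicate 1 the Rpe65 difference was 0.46 and that of Lrat was 0.45, and without TAA replicate 2 that of Ttr was 0.53 and that of Rdh5 was -0.31.

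Against BSS, Rpe65 in DEX retinas differed at day 30 by 0.19 ± 0.47 (SE, 95% interval -0.80 to 1.19, limma adjusted p = 0.900) and in TAA retinas by -0.58 ± 0.47 (SE, 95% interval -1.58 to 0.41, limma adjusted p = 0.835). The DEX difference was -0.021 without BSS replicate 3 and 0.35 without BSS replicate 2, and the TAA difference was -1.15 without TAA replicate 3 and -0.27 without TAA replicate 1. At day 7 the difference from BSS was -0.54 ± 0.47 (SE, 95% interval -1.54 to 0.46, limma adjusted p = 1.0) in DEX retinas and -0.10 ± 0.47 (SE, 95% interval -1.10 to 0.90, limma adjusted p = 1.0) in TAA retinas. Both moved with BSS replicate 1, the array of high Tyrp1, Dct, Mlana and Pmel and low Rpe65. Without it they were -1.07 for DEX and -0.63 for TAA. At the other end, the DEX difference was -0.27 without BSS replicate 2 and the TAA difference was 0.23 without TAA replicate 3. In DEX retinas at day 7, Lrat differed from BSS by -0.57 ± 0.39 (SE, 95% interval -1.39 to 0.25, limma adjusted p = 1.0), Ttr by -0.55 ± 0.50 (SE, 95% interval -1.61 to 0.51, limma adjusted p = 1.0) and Rdh5 by -0.53 ± 0.28 (SE, 95% interval -1.11 to 0.051, limma adjusted p = 1.0). Without BSS replicate 1 the Lrat difference was -0.94 and that of Ttr was -1.11, and without DEX replicate 3 that of Rdh5 was -0.83. The smallest drops were -0.24 for Lrat without DEX replicate 1, -0.25 for Ttr without BSS replicate 2 and -0.35 for Rdh5 without DEX replicate 2. In that comparison 11 of the 13 member probe sets were lower in DEX retinas, against 51.4% of all probe sets, and their median difference was -0.44 against -0.0041 over all. That median was -0.80 without DEX replicate 3 and -0.19 without DEX replicate 2. The 13 share arrays, and 4 of them are of Ttr. The Rpe65 intervals for DEX at day 7 and for TAA at both days hold a drop of 1 log2 unit, so these data do not exclude a drop of that size given the spread of Rpe65 within groups.

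**Figure D5:**
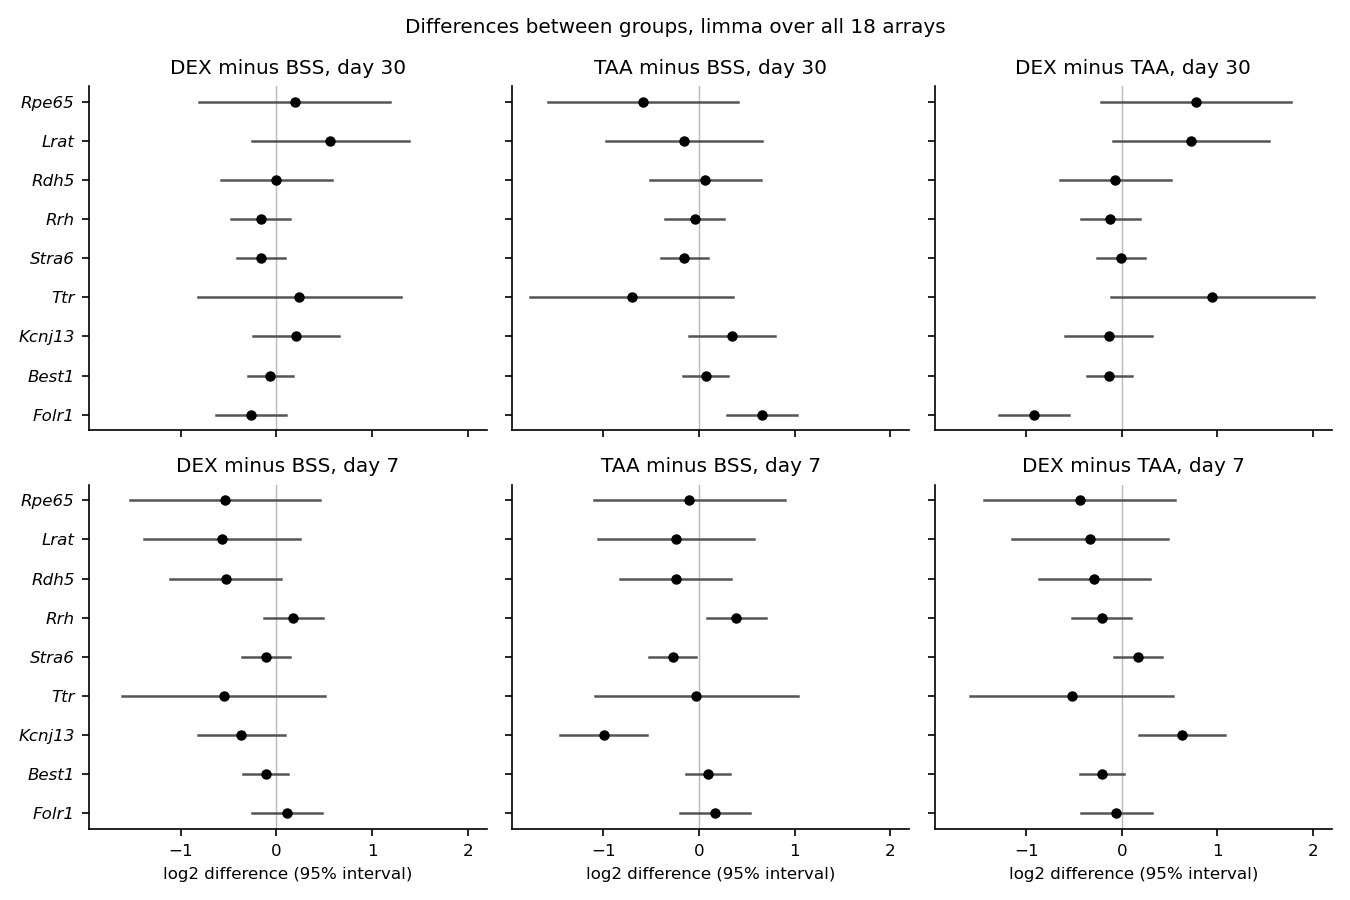
Log2 difference (horizontal axis) of each of the 9 genes between groups at day 30 (top) and day 7 (bottom), as points with 95% intervals from limma, unadjusted for the number of probe sets. The intervals of Rpe65, Lrat and Ttr include 0 in all 6 panels, and those of Kcnj13 for TAA minus BSS at day 7 and of Folr1 for DEX minus TAA at day 30 do not.

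Kcnj13 encodes an inwardly rectifying potassium channel of the apical membrane of the pigment epithelium (chr1:87384577-87394729), and its promoter window is shown above. Its values were lower in all 3 TAA retinas at day 7 than in any BSS retina of that day. At day 7 they were -0.37, -0.50 and 0.43 in DEX retinas, -0.92, -0.81 and -0.59 in TAA retinas and 0.13, 0.24 and 0.30 in BSS retinas. At day 30 they were -0.048, 0.050 and 0.046 in DEX retinas, -0.050, 0.044 and 0.47 in TAA retinas and -0.044, 0.12 and -0.65 in BSS retinas. The 3 TAA arrays of day 7 were the lowest of that day, and at day 30 the groups overlapped. Groups that do not overlap were found for 9.98% of all probe sets in TAA against BSS at day 7, and for 2 of the 13 member probe sets, Kcnj13 and Stra6, both lower in TAA retinas.

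The Kcnj13 difference between TAA and BSS retinas at day 7 was -0.997 ± 0.22 (SE, 95% interval -1.45 to -0.54, limma adjusted p = 0.609), a fold of 0.501. It did not pass over all probe sets, and it stayed between -1.09 and -0.92 when any 1 array was left out. DEX retinas at day 7 differed from BSS retinas by -0.37 ± 0.22 (SE, 95% interval -0.82 to 0.086, limma adjusted p = 1.0) and from TAA retinas by 0.63 ± 0.22 (SE, 95% interval 0.18 to 1.08, limma adjusted p = 0.712). The difference from BSS was -0.65 without DEX replicate 3 and -0.19 without DEX replicate 2, and that from TAA was 0.34 without DEX replicate 3. In TAA retinas Kcnj13 at day 30 differed from day 7 by 0.93 ± 0.22 (SE, 95% interval 0.47 to 1.38, limma adjusted p = 0.184), and its difference from BSS at day 30 was 0.34 ± 0.22 (SE, 95% interval -0.11 to 0.80, limma adjusted p = 0.781), or 0.12 without BSS replicate 3. The TAA effect at day 30 minus that at day 7 was 1.34 ± 0.30 (SE, 95% interval 0.70 to 1.98, limma adjusted p = 0.760), and it did not pass. Of the variance of Kcnj13, 64.5% lay between groups. The genes most like it over the 18 arrays were Pgm1 (r = 0.852), Fmn2 (0.844) and Slco1a5 (0.809).

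Folr1 encodes folate receptor alpha, which takes up folate across the pigment epithelium (chr7:101858331-101870788). At day 30 it was lowest in DEX retinas and highest in TAA retinas. Its values at day 30 were -0.50, -0.61 and -0.58 in DEX retinas, 0.25, 0.14 and 0.68 in TAA retinas and -0.16, -0.62 and -0.12 in BSS retinas. At day 7 they were 0.078, 0.062 and 0.055 in DEX retinas, -0.28, 0.41 and 0.23 in TAA retinas and 0.16, -0.24 and -0.055 in BSS retinas. At day 30 the TAA arrays lay above every DEX and BSS array, while 1 BSS array lay as low as the DEX arrays. At day 7 the 3 groups overlapped. Folr1 was the only one of the 13 member probe sets whose arrays did not overlap between DEX and TAA retinas at day 30, where 14.1% of all probe sets did not. It was also the only one between TAA and BSS retinas at day 30, where 13% did not.

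Between DEX and TAA retinas at day 30 Folr1 differed by -0.92 ± 0.17 (SE, 95% interval -1.28 to -0.55, limma adjusted p = 0.0769). It did not pass. It ranked at position 24 by p in that comparison, among 28 probe sets that share this adjusted p, the smallest there. The adjusted p was 0.014 without DEX replicate 3 at day 30, a fit that called 2798 probe sets in all, and the difference lay between -1.03 and -0.76 over the fits that left out 1 array. The difference from BSS at day 30 was -0.26 ± 0.17 (SE, 95% interval -0.63 to 0.11, limma adjusted p = 0.551) in DEX retinas and 0.66 ± 0.17 (SE, 95% interval 0.29 to 1.02, limma adjusted p = 0.671) in TAA retinas. The DEX value was -0.42 without BSS replicate 2 and -0.17 without BSS replicate 3. In DEX retinas Folr1 at day 30 differed from day 7 by -0.63 ± 0.17 (SE, 95% interval -0.99 to -0.26, limma adjusted p = 0.0670). The 3 arrays of day 30 all lay below those of day 7, and 24.9% of all probe sets had arrays that did not overlap in that comparison. Of the 13 member probe sets 3 did so, Folr1 and Rrh lower and Rpe65 higher at day 30. Of the variance of Folr1, 71.1% lay between groups, the most of the 9 genes. The genes most like it were Zbtb8b (r = 0.880), Carhsp1 (0.871) and Txndc12 (0.826).

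Rrh, which encodes peropsin (chr3:129808575-129822505), varied less. At day 7 its values were 0.039, 0.063 and 0.20 in DEX retinas, -0.080, 0.50 and 0.51 in TAA retinas and -0.18, -0.11 and 0.059 in BSS retinas. At day 30 they were -0.14, -0.26 and -0.19 in DEX retinas, -0.0012, -0.23 and 0.0012 in TAA retinas and 0.014, -0.28 and 0.17 in BSS retinas. TAA replicates 2 and 3 at day 7 were the highest arrays, and replicate 1 lay among the BSS arrays. The difference between TAA and BSS retinas at day 7 was 0.39 ± 0.15 (SE, 95% interval 0.080 to 0.70, limma adjusted p = 1.0), and 0.59 without TAA replicate 1. In TAA retinas the difference between day 30 and day 7 was -0.39 ± 0.15 (SE, 95% interval -0.70 to -0.077, limma adjusted p = 0.332), and -0.58 without the same array. The genes most like Rrh were Bid (r = 0.853), Fam98b (0.849) and Stub1 (0.836).

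Stra6, the receptor for retinol-binding protein (chr9:58063793-58154004), and Best1, a chloride channel of the basolateral membrane (chr19:9985172-10001633), had the smallest spreads within groups of the 9 genes. Stra6 values at day 7 were 0.041, -0.072 and -0.0066 in DEX retinas, 0.047, -0.20 and -0.40 in TAA retinas and 0.073, 0.084 and 0.12 in BSS retinas. All TAA arrays and all DEX arrays lay below the BSS arrays. Groups that do not overlap were found for 14.4% of all probe sets in DEX against BSS at day 7, and Stra6 was the only such member. The difference between TAA and BSS retinas was -0.28 ± 0.12 (SE, 95% interval -0.53 to -0.028, limma adjusted p = 1.0), and -0.17 without TAA replicate 3. At day 30 the Stra6 arrays lay between -0.098 and 0.11 in DEX retinas, between -0.018 and 0.0066 in TAA retinas and between -0.064 and 0.37 in BSS retinas, and the groups overlapped. Best1 stayed between -0.21 and 0.20 on all 18 arrays. Its largest difference between drugs was at day 7, where DEX arrays were at -0.11, -0.078 and -0.0046 and TAA arrays at 0.20, 0.17 and 0.057, a difference of -0.21 ± 0.11 (SE, 95% interval -0.44 to 0.023, limma adjusted p = 0.829). Groups that do not overlap were found for 12.6% of all probe sets in that comparison, and for Best1 and Kcnj13 among the members. Between DEX and BSS retinas at day 30, 0 of the 13 member probe sets had arrays that did not overlap, beside 14.5% of all.

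Dexamethasone and triamcinolone share the glucocorticoid skeleton and differ on its D ring. There dexamethasone has a methyl group, and triamcinolone has a group joined through oxygen. Doses are not in the labels, so the readouts are set side by side at matched days only. The pair was compared at 2 days for each of the 13 probe sets, with p-values adjusted over all probe sets. At day 30 Rpe65 differed between the drugs by at most 1.77 in favour of DEX and 0.22 in favour of TAA by its 95% interval, and at day 7 the difference was -0.44 ± 0.47 (SE, 95% interval -1.44 to 0.56, limma adjusted p = 0.934). The day 7 value was -0.81 without DEX replicate 3 and -0.095 without TAA replicate 2, and -0.0091 with array weights. Neither drug was therefore shown to differ from the other on any of the 9 genes, and likeness between them was not shown either, since both Rpe65 intervals hold differences of 1 log2 unit.

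With time, Rpe65 in DEX retinas at day 30 differed from day 7 by 0.92 ± 0.47 (SE, 95% interval -0.078 to 1.91, limma adjusted p = 0.310), with all 3 arrays of day 30 above those of day 7. In TAA retinas Kcnj13 was the only member whose arrays did not overlap between the days, with day 30 higher, beside 12.8% of all probe sets. In BSS retinas it was also Kcnj13, with day 30 lower, beside 21.6%. No gene of the 10 lists of retinoid, pigment epithelium, melanosome, choroid plexus and ciliary epithelium, rod, cone, Müller glia, lens, cornea and choroid genes passed over all probe sets in any of the 11 comparisons by limma. At an unadjusted p under 0.05, the 11 other retinoid genes at day 30 gave 0 higher and 0 lower in DEX against BSS retinas, beside 11.8% of all probe sets in either direction, and 2 higher and 0 lower in TAA against BSS retinas, beside 7.03%. Day 7 gave 0 higher and 2 lower in DEX retinas, beside 3.41%, and 0 higher and 2 lower in TAA retinas, beside 3.83%. The 18 other pigment epithelium genes at day 30 gave 0 higher and 2 lower in DEX retinas and 0 of each in TAA retinas. The day 7 counts were 0 of each in DEX retinas, and 2 higher and 0 lower in TAA retinas, with the same shares of all probe sets.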

How the data were processed

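The 18 arrays were grouped by treatment and day from their labels. The deposited values are log2 values that the authors made with RMA, per the submitters' processing notes. Version and settings are not given in the sources used here. Every probe set had a median within 5e-07 of 0 over the arrays, so the values are relative. Log base and direction follow RMA's convention. Signal over background is not in the values, and precision is limited by the number of arrays.

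Of 45101 probe sets, 34945 were annotated to 1 gene and tested, 932 named several genes, 9160 were unnamed and 64 were controls. The limma package 3.58.1 (R 4.3.3) fitted every probe set with a coefficient for each of the 6 groups, 12 residual and 5.3 prior degrees of freedom, and Benjamini-Hochberg adjusted p-values over all probe sets tested. The fit was tested on simulated data, with known changes added to random probe sets in TAA retinas at day 7. It called 27% of changes of 0.5 log2 units, 85.1% of 1 unit and 98.5% of 2 units. The noise was normal, drawn independently for each probe set from its residual SD and alike on all arrays. Deviations shared between probe sets and arrays of unequal spread were not simulated, so these shares need not hold for the real arrays. The share for probe sets with a spread as wide as that of Rpe65 was not computed. Permutation tests used Python 3.11.15. All 9 members are named. Array values are those of the probe set of widest interquartile range, blind to group. From other lists at most 3 genes per comparison are named, and for likeness the 6 genes nearest the mean of the 9 and up to 3 per member. Genes named for their correlation with Rpe65, or for their values on BSS replicate 1 at day 7, were chosen after their values were seen. The members and lists were chosen with earlier results of these data known. Alternatives were other normalizations, filters, array sets, array weights, a replicate block and leaving out each array.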

Additional observations from a re-analysis of the deposited data

Results flagged for a closer look

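The arrays of each drug were compared with the vehicle mean of their day for each of the 9 genes. In 3 cases all arrays of 1 day lay above their day's mean and all arrays of the other day lay below theirs. The share of all probe sets with this pattern was not computed, so these cases were not shown to exceed it. Kcnj13 was below the BSS mean on the 3 TAA arrays of day 7 and above it on the 3 of day 30, and the TAA effect at day 30 minus that at day 7 was 1.34 ± 0.30 (SE, limma adjusted p = 0.760). Folr1 was below the BSS mean on the 3 DEX arrays of day 30 and above it on the 3 of day 7, and the DEX effect at day 30 minus that at day 7 was -0.37 ± 0.25 (SE, limma adjusted p = 0.686). Rrh likewise was below the BSS mean on the 3 DEX arrays of day 30 and above it on the 3 of day 7. Its DEX effect was -0.17 at day 30 and 0.18 at day 7, and the change between them was -0.34 ± 0.21 (SE, limma adjusted p = 0.659). In limma's test of the change itself, none of the 3 passed over all probe sets. Without single arrays the Rrh effects were -0.29 to -0.064 at day 30 and 0.13 to 0.25 at day 7. No cause was tested.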

How the results depend on the processing

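Of 32 differences of single genes, 29 kept their sign in every alternative run. The other 3 turned when 1 array was left out. Over the fits that left out 1 array, the Rpe65 difference for DEX minus BSS at day 30 ranged from -0.021 to 0.35. That for TAA minus BSS at day 7 ranged from -0.63 to 0.23, and reached -0.85 among the other alternatives. The Rdh5 difference for DEX minus TAA at day 30 ranged from -0.31 to 0.23, and reached -0.38 among the others. The other alternatives also took Lrat for DEX minus BSS at day 7 to -1.29. They brought Rpe65 for TAA minus BSS at day 30 to -0.14 and Ttr for DEX minus TAA at day 30 to 0.28. The count of member probe sets called was 0 in 162 of 166 fits. Array weights called 3 for TAA minus BSS at day 7 (Kcnj13 at -0.88, Rrh at 0.51 and Stra6 at -0.43), 1 for DEX minus TAA at day 30 (Folr1 at -1.03) and 1 for DEX at day 30 minus day 7 (Folr1 at -0.60), when 83, 4356 and 7323 of all probe sets were called. Leaving out 1 array gave 0 to 1 for DEX minus TAA at day 30. The median difference over the member probe sets moved, by 0.432 log2 units or more, in 7 of 155 fits. That limit is the SD within groups of the arrays' member medians, so smaller shifts were not counted. For DEX minus TAA at day 30 it was -0.069 with 1 probe set per gene and -0.16 with array weights, against 0.44. With array weights it was 0.20 for TAA at day 30 minus day 7, against -0.30, and 0.43 for the change of the TAA effect, against -0.050. Leaving out 1 array gave -0.62 to -0.082 for TAA minus BSS at day 30, -0.58 to 0.15 for TAA minus BSS at day 7 and -0.46 to 0.087 for BSS at day 30 minus day 7. The cause was not tested. The labels do not say whether replicate numbers pair the arrays. In their deviations from group means, same-numbered arrays had median correlations of 0.042 to 0.048, against -0.013 for arrays of different numbers and groups. These medians over all probe sets cannot settle whether arrays were paired. A fit with the replicate number as a block called 0 members in the 11 comparisons. Over all probe sets, DEX at day 30 minus day 7 called 700, against 1 when only its own arrays were fitted, 444 after quantile normalization and 7323 with array weights, and 2 to 2590 without 1 array. BSS at day 30 minus day 7 called 5, against 54 after quantile normalization and 658 with array weights. Array weights called 5200 for DEX minus BSS at day 30, 1172 for DEX minus TAA at day 7, 55 for DEX minus BSS at day 7, 104 for TAA at day 30 minus day 7, 3311 for the change of the DEX effect and 19 for that of the TAA effect, against 0 in each. TAA minus BSS at day 7 called 1, against 3 after quantile normalization, 2 with the interquartile range filter and up to 21 without 1 array. Without DEX replicate 3 at day 30, 1856 were called for DEX minus BSS at day 30 and 2798 for DEX minus TAA.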
